A study of Mus musculus with 18 samples.

Results

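The genes described here are 53 genes of regulated exocytosis: SNARE proteins, synaptotagmins and the priming, tethering and recycling factors that act with them. They were taken by symbol from a table of 23228 genes, and 53 of 53 symbols were found in it. RNA was sequenced from 2 tissues of ICR mouse embryos labelled wild type. The neural tube sample (E12.5) came from transgenic embryos with GFP under the 2.3 kb Ptf1a autoregulatory enhancer (chr2:19351717-19354014, mm9) and a beta-globin basal promoter. Its GFP-positive cells were sorted after trypsin treatment, so that the promoter and enhancer of the transgene set which cells were taken. The pancreas sample was whole tissue at E15.5, without the transgene in its label. Each label names 2 libraries, but the table holds 1 value per gene and tissue, read here as the authors' pooled value. There is therefore no replicate check, and no SD or p-value can be given.

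Regulated exocytosis is the release of stored vesicles or granules on a signal. A vesicle R-SNARE of the VAMP family pairs with a syntaxin and a SNAP-25 family protein on the plasma membrane, and the complex draws the membranes together. Synaptotagmins bind calcium or phospholipid and couple the signal to fusion, complexins clamp and promote the complex, Unc13 and Rim proteins prime vesicles, and Rab3 and Rab27 GTPases with their effectors dock them. NSF and SNAP adaptors take the used complex apart. Neurons use this machinery for synaptic vesicles, endocrine cells for hormone granules and acinar cells for zymogen granules, with different paralogs in part.

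Levels are given in FPKM, a fragment count divided by transcript length and by the number of mapped fragments, so that levels can be compared between genes per length. A difference is the neural tube value minus the pancreas value, both as log2(FPKM + 1). On this scale low genes differ by less than their plain ratio. The size rule calls a gene higher in 1 tissue at a gap of 4 times or more on this scale, provided the higher value reaches 5 FPKM. Genes with both values at 5 FPKM or more and a plain FPKM ratio of 2 or less are called similar. Neither rule is a statistical test. The lowest steps of the values put the depth of pancreas at about 1.96 times that of neural tube, so that 5 FPKM on 1 kb of effective length stands for about 129.6 fragments in neural tube and 253.6 in pancreas. Of the 12 acinar markers 11 were called higher in pancreas, and of 10 pan-neuronal and 8 inhibitory interneuron markers found, all 10 and all 8 were called higher in neural tube. In the neural tube sample the acinar markers Clps and Pnlip were listed at 0.

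Promoters are shown first for 3 called genes in each direction, to give the sequence next to the start site. RefSeq promoter entries of 250 bases upstream of the transcription start were found for 39 of the 53 genes (52 entries), including 11 of the 14 genes called higher in neural tube and 4 of the 5 called higher in pancreas. The 6 printed below have 1 entry each and are trimmed to bases outside annotated exons, which leaves 214 bases for Vamp8. They are the 3 genes per direction with the largest differences among those with a single entry and enough bases outside exons, a choice made after the values were seen. Syt1 and Sypl, which differed more than some of those printed, have 2 entries each, and the Syt11 entry lies within annotated exons. By exact match to NCBIM37 (mm9), all on the minus strand, they lie at chr13:111070415-111070664 (Rab3c), chr13:96902533-96902782 (Sv2c), chr8:74195657-74195906 (Unc13a), chr6:72340698-72340911 (Vamp8), chrX:130516352-130516601 (Sytl4) and chr19:11893894-11894143 (Stx3). Each is written 5′ to 3′ along the gene. Capitals mark matches on either strand to any of 6 motifs. The TATA box was searched as TATAAA. The GC box, bound by Sp factors, was searched as GGGCGG. An E-box of the kind bound by basic helix-loop-helix factors was searched as CAGCTG. The core of the motif of Rbpj, a partner of Ptf1a, was searched as TGGGAA. The left part of the element of REST, a repressor of neuronal genes, was searched as CAGCACC. The right part of that element was searched as GGACAGC.

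Rab3c: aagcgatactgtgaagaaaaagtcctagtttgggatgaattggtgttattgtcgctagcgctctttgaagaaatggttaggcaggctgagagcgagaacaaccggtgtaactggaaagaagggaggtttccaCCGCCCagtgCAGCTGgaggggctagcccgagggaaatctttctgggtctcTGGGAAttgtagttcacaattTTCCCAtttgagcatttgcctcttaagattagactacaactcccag

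Sv2c: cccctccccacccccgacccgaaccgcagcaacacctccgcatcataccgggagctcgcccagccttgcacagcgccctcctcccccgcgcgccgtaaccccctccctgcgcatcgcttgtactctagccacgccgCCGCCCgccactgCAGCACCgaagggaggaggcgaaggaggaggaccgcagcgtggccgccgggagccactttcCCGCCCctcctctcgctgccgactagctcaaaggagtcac

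Unc13a: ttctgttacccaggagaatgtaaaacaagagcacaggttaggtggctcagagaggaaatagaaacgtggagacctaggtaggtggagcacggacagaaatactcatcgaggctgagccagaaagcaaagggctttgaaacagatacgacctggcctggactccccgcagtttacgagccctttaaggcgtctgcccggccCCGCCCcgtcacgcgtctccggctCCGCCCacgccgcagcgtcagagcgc

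Vamp8: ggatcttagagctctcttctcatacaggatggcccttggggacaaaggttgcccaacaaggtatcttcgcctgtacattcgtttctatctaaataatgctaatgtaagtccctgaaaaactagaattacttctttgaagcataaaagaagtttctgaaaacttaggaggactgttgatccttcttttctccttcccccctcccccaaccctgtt

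Sytl4: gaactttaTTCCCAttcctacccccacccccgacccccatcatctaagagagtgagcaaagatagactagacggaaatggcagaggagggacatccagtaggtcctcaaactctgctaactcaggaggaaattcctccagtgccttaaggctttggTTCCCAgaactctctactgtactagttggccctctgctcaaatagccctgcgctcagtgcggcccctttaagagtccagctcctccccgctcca

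Stx3: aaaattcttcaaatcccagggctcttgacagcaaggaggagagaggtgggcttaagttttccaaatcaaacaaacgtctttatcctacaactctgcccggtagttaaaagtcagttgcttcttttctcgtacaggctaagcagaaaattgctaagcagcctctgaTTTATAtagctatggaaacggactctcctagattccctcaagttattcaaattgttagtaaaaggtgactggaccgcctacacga

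The first 3 belong to genes called higher in neural tube and the last 3 to genes called higher in pancreas. Rab3c held a GC box 118 to 113 and an E-box 108 to 103 bases upstream of its RefSeq start and Rbpj cores at 67 to 62 and 46 to 41. In the GENCODE M1 annotation Rab3c runs to 111071109 on the minus strand, so its printed stretch lies within that longer gene span. Sv2c held the left REST part at 101 to 95 between a pair of GC boxes, and Unc13a held GC boxes at 50 to 45 and 26 to 21. The Vamp8 stretch held none of the 6 motifs. Sytl4 held Rbpj cores at 242 to 237 and 94 to 89, and Stx3 a TATA box read on the other strand at 85 to 80.

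Over all entries, 9 of 13 promoters of genes called higher in neural tube held a GC box, 2 of 5 of those called higher in pancreas and 29 of 52 of all the exocytosis genes, beside 32.7% of 32851 RefSeq promoters. The E-box was held by 5 of 13, by 1 of 5 and by 16 of 52 of all the exocytosis genes (13.0% of all promoters). The Rbpj core was held by 3 of 13, by 3 of 5 and by 14 of 52 (21.6% of all). The left REST part stood in 2 of 13, those of Sv2c and Syn1, and in 0 of 5 (5.73% of all), and the right part in 0 of 13 and 1 of 5 (5.28% of all). A TATA box was in 0 of 13 and 1 of 5 (12.4% of all). No letters of one motif overlapped another in the printed stretches. The median GC content was 58.8% for promoters of genes higher in neural tube (range 42.8% to 70.8%), 60.6% for those of all the exocytosis genes and 52.4% over all promoters. For genes higher in pancreas it was 53.2%. Such matches are descriptions of letters, and some genes give more than 1 entry.

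Between the tissues, synaptic vesicle and neuronal fusion genes such as Rab3c, Syt11, Syt1 and Snap25 had the higher level in the sorted neural tube cells, and a smaller set led by Vamp8 and Sypl in pancreas. Of all 53 genes, 14 were called higher in neural tube (26.4%), where the same rule called 4.76% of all genes of the table. Another 5 were called higher in pancreas (9.43%), against 5.5% of all genes. Counted over the 37 genes that reached 5 FPKM in either tissue, the shares were 37.8% and 13.5%, beside 10.3% and 11.9% of all genes at that level. By both denominators the pancreas share lay nearer to its background than the neural tube share did. A further 9 genes were similar, which is 56.25% of the 16 at 5 FPKM or more in both tissues, against 65.9% of all such genes. The remaining 25 had no call, 16 of them because they stayed below 5 FPKM in both tissues. The median difference of all 53 genes was 0.43, where that of all genes was 0. Over the 47 at 1 FPKM or more in either tissue it was 0.68, against -0.07 over 14303 genes.

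**Figure D1:**
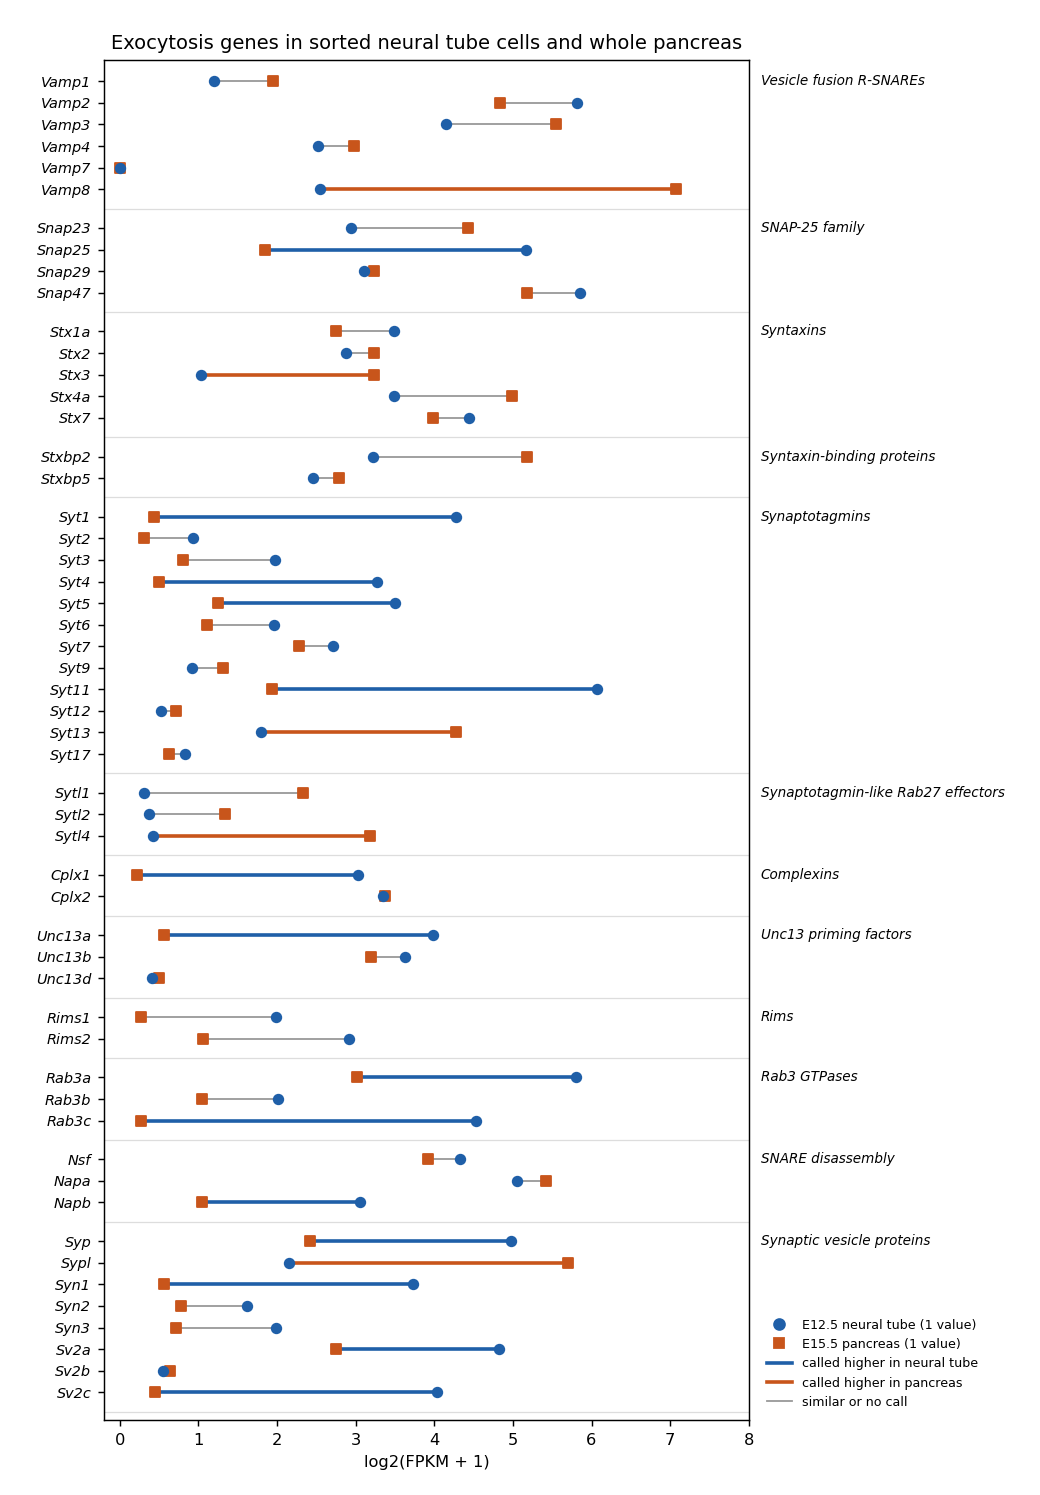
Levels of the 53 exocytosis genes, as log2(FPKM + 1) on the horizontal axis, in E12.5 neural tube (circles) and E15.5 pancreas (squares), 1 value per tissue, grouped by role. Blue lines join the 14 genes called higher in neural tube and orange lines the 5 called higher in pancreas; Vamp8 reaches the highest level in either tissue.

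**Figure D2:**
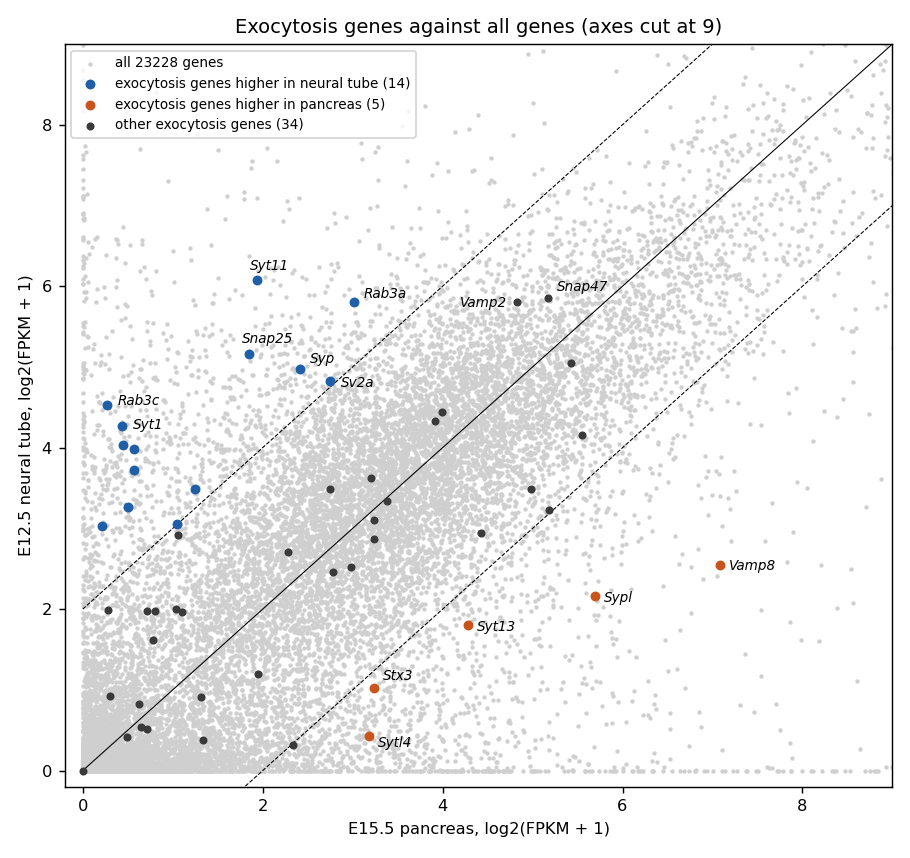
All 23228 genes by log2(FPKM + 1) in pancreas (horizontal) and neural tube (vertical), with the exocytosis genes in colour, the line of equality and dashed lines at a difference of 2. The axes stop at 9, which leaves out 231 genes. Of the exocytosis genes with at least 5 FPKM in either tissue, 14 lie above the upper line and 5 below the lower line. Sytl1, which stayed under 5 FPKM, also lies just below the lower line at a difference of -2.02.

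Among the vesicle R-SNAREs, the leading gene differed between the tissues. Vamp8, the R-SNARE of zymogen granule and other secretory granule fusion (chromosome 6, 72335217 to 72340697, minus strand), stood at 134 FPKM in pancreas and 4.84 in neural tube, 27.7 times higher in pancreas (difference -4.53). It was the highest of the 53 genes in pancreas and made up 61.8% of the summed FPKM of the 6 R-SNAREs there, against 5.85% in neural tube. Vamp2, the main synaptic vesicle R-SNARE (synaptobrevin 2), measured 55.1 FPKM in neural tube and 27.4 FPKM in the pancreas sample. It took 66.6% of the R-SNARE sum in neural tube and 12.6% in pancreas, while its own FPKM ratio of 2.01 lay just outside the rule for similar genes.

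The other R-SNAREs did not pass the rule. Vamp3 (cellubrevin), the widely expressed relative of Vamp2, reached 16.8 FPKM in the neural tube sample and 45.7 in pancreas, a ratio of 2.73. Vamp4, of the trans-Golgi network, was at 4.76 and 6.88 FPKM, and Vamp1 (synaptobrevin 1) at 1.29 and 2.86. Vamp7, a SNARE of late endosomes and lysosomes, was listed at 0 in both tissues, as were 2465 genes of the table, and no gene of that symbol was found in the annotation used. Since the translation initiation gene Eif3j was also listed at 0 in neural tube, an exact 0 is not read as absence.

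In the SNAP-25 family Snap25 and Snap23 had opposite orders. Snap25, the neuronal and neuroendocrine t-SNARE (chromosome 2, 136539189 to 136608164), had 34.9 FPKM in neural tube against 2.60 in pancreas, a ratio of 13.4. Its widely expressed relative Snap23 stood at 6.67 and 20.5 FPKM, 3.08 times higher in pancreas and short of the rule. Snap47, an intracellular family member, was the most abundant of the 4 genes in both tissues at 56.9 and 35.1 FPKM, and held 53.7% and 52.7% of the family sum. Snap29, which acts on endosomal and autophagosome membranes, was similar at 7.58 and 8.41 FPKM.

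Among the 5 listed syntaxins, 1 was called higher in a tissue. Stx3, an apical plasma membrane and granule syntaxin of epithelial cells, measured 1.04 FPKM in neural tube and 8.40 FPKM in the pancreas sample, a difference of -2.20. Stx4a, the syntaxin usually placed at the basolateral membrane, was at 10.2 and 30.7 FPKM, and led the 5 listed syntaxins in pancreas with 45.1% of their sum. Stx1a, the neuronal and endocrine plasma membrane syntaxin, was similar at 10.2 and 5.72 FPKM. Stx2 at 6.33 and 8.42 FPKM, and the endosomal Stx7 at 20.8 and 14.9 FPKM, were also similar. The last of these had the highest level of the 5 in neural tube.

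Neither of the 2 listed syntaxin-binding proteins was called. Stxbp2 (Munc18-2), the partner of Stx3 in epithelial and blood cells, reached 8.34 FPKM in the neural tube sample and 35.3 in pancreas, a ratio of 4.24. Its difference of -1.96 put it just outside the rule, as the pseudocount of 1 FPKM shrinks the ratio. Stxbp5 (tomosyn), an inhibitor of SNARE assembly, was at 4.49 and 5.89 FPKM, an order that flips when the samples are rescaled to equal totals or housekeeping genes.

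Of the 12 synaptotagmins, 4 were called higher in neural tube and 1 in pancreas. Their summed FPKM was 120.3 in neural tube and 32.0 in pancreas. Syt11, a family member that does not bind calcium (chromosome 3, 88548622 to 88636219), was the highest of the 53 genes in neural tube at 66.2 FPKM and stood at 2.84 in pancreas. It alone made up 55.1% of the synaptotagmin sum in neural tube and 8.87% in pancreas. Syt1, the fast calcium sensor of synaptic vesicles (chromosome 10, 107934706 to 108448038), was at 18.3 FPKM against 0.355, a ratio of 51.6. Both lay far outside the diagonal band of the plot of all genes.

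Syt4, found on dense-core vesicles, had 8.63 FPKM in neural tube against 0.418 in pancreas, and Syt5, a calcium sensor close to Syt1, had 10.3 against 1.37. The gene on the pancreas side was Syt13, another member that does not bind calcium (chromosome 2, 92755255 to 92796215), with 18.4 FPKM in pancreas against 2.49 in neural tube. In pancreas it held 57.4% of the synaptotagmin sum, more than the other 11 together. Syt7, a slow, high-affinity calcium sensor used in neurons and endocrine cells, differed little, at 5.55 and 3.86 FPKM.

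The 6 remaining synaptotagmins were below 5 FPKM in both tissues and could not be called. Syt3 stood at 2.93 and 0.745 FPKM, Syt6 at 2.91 and 1.16, and Syt2, a fast sensor like Syt1, at 0.903 and 0.236. Syt17 stood at 0.776 and 0.543, Syt9 at 0.884 and 1.48, and Syt12 at 0.433 and 0.636. The first 4 of these had the higher value in neural tube and the last 2 in pancreas, although the order of Syt12 flipped under rescaling.

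The synaptotagmin-like proteins, which tether granules through Rab27, ran toward pancreas in 3 of 3 genes. Sytl4 (granuphilin, chromosome X, 130470924 to 130516351) measured 0.343 FPKM in neural tube and 8.06 FPKM in the pancreas sample, a ratio of 23.5, and was called. Sytl1 was at 0.243 and 4.05 FPKM, a difference of -2.02 that reached 4 times but not the minimum of 5 FPKM. Sytl2 was at 0.298 and 1.52 FPKM. In neural tube these values rest on an estimated 14.5 to 35.8 fragments per gene, and their sum was 0.884 FPKM against 13.6 in pancreas.

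Among complexins, Cplx1 and Cplx2 parted. Cplx1, the first of these SNARE-binding regulators, reached 7.17 FPKM in the neural tube sample and 0.163 in pancreas, where it rests on about 16.6 fragments. Cplx2 was similar at 9.16 and 9.40 FPKM and made up 98.3% of the pair's sum in pancreas. The Unc13 priming factors also included 1 gene called higher in neural tube and 1 similar gene. Unc13a (Munc13-1), the main primer of synaptic vesicles, was at 14.8 FPKM against 0.480, a ratio of 30.8, while Unc13b (Munc13-2) was similar at 11.3 and 8.20 FPKM and held 90.2% of the group's sum in pancreas. Unc13d (Munc13-4), the primer of blood cell granules, was low in both at 0.330 and 0.412 FPKM.

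The Rim scaffolds of the active zone had higher values in neural tube but missed the rule. Rims1 was at 2.98 FPKM against 0.211 and never reached the minimum, and Rims2 was at 6.54 against 1.08, a difference of 1.86 just outside the threshold. All 3 listed Rab3 GTPases had higher values in neural tube, with sums of 80.1 and 8.36 FPKM. Rab3c (chromosome 13, 110844395 to 111071109) had the largest difference of all 53 genes toward neural tube, 4.27, at 22.1 FPKM against 0.204. Rab3a, the most abundant synaptic vesicle Rab, was at 54.9 FPKM and 7.09, and Rab3b at 3.02 and 1.06. Rab3a led this group in both tissues.

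Of the genes that take SNARE complexes apart, 2 of 3 were similar. Nsf, the ATPase, had similar levels of 19.1 FPKM (neural tube) and 14.1 FPKM (pancreas), and its adaptor Napa (alpha-SNAP) was similar at 32.2 and 41.9. Napb (beta-SNAP), the form known from brain, was at 7.29 and 1.07 FPKM, with a difference of 2.00 just inside the threshold. The summed FPKM of the 3 genes was 58.6 and 57.1, the closest sums of the 12 role groups as deposited.

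Synaptic vesicle proteins were called higher in neural tube for 4 of 8 genes and in pancreas for 1. Syp (synaptophysin) was at 30.5 FPKM against 4.35, and its widely expressed relative Sypl (pantophysin) showed the opposite order at 3.46 against 50.9 FPKM. Syn1, a synapsin that holds vesicles in reserve, was at 12.2 against 0.482. The sugar-transporter-like vesicle glycoproteins Sv2a and Sv2c were at 27.3 against 5.73 and at 15.4 against 0.363 FPKM. Sypl alone thus held 79.8% of the group's sum in pancreas and 3.67% in neural tube.

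The other vesicle proteins stayed below 5 FPKM. Syn2 was at 2.06 and 0.720 FPKM and Sv2b at 0.458 and 0.564. Syn3 was at 2.95 and 0.636, a value to be read with care. In the GENCODE M1 annotation Syn3 shares 1733 exon bases with Timp3 on the opposite strand (1.62 and 17.9 FPKM), and no source used here states that the counting used strand. Exon bases are shared with another gene of the table by 9 of the 53 genes, always on the opposite strand, among them Snap47, which shares 307 with Jmjd4 (5.94 and 3.79 FPKM).

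**Figure D3:**
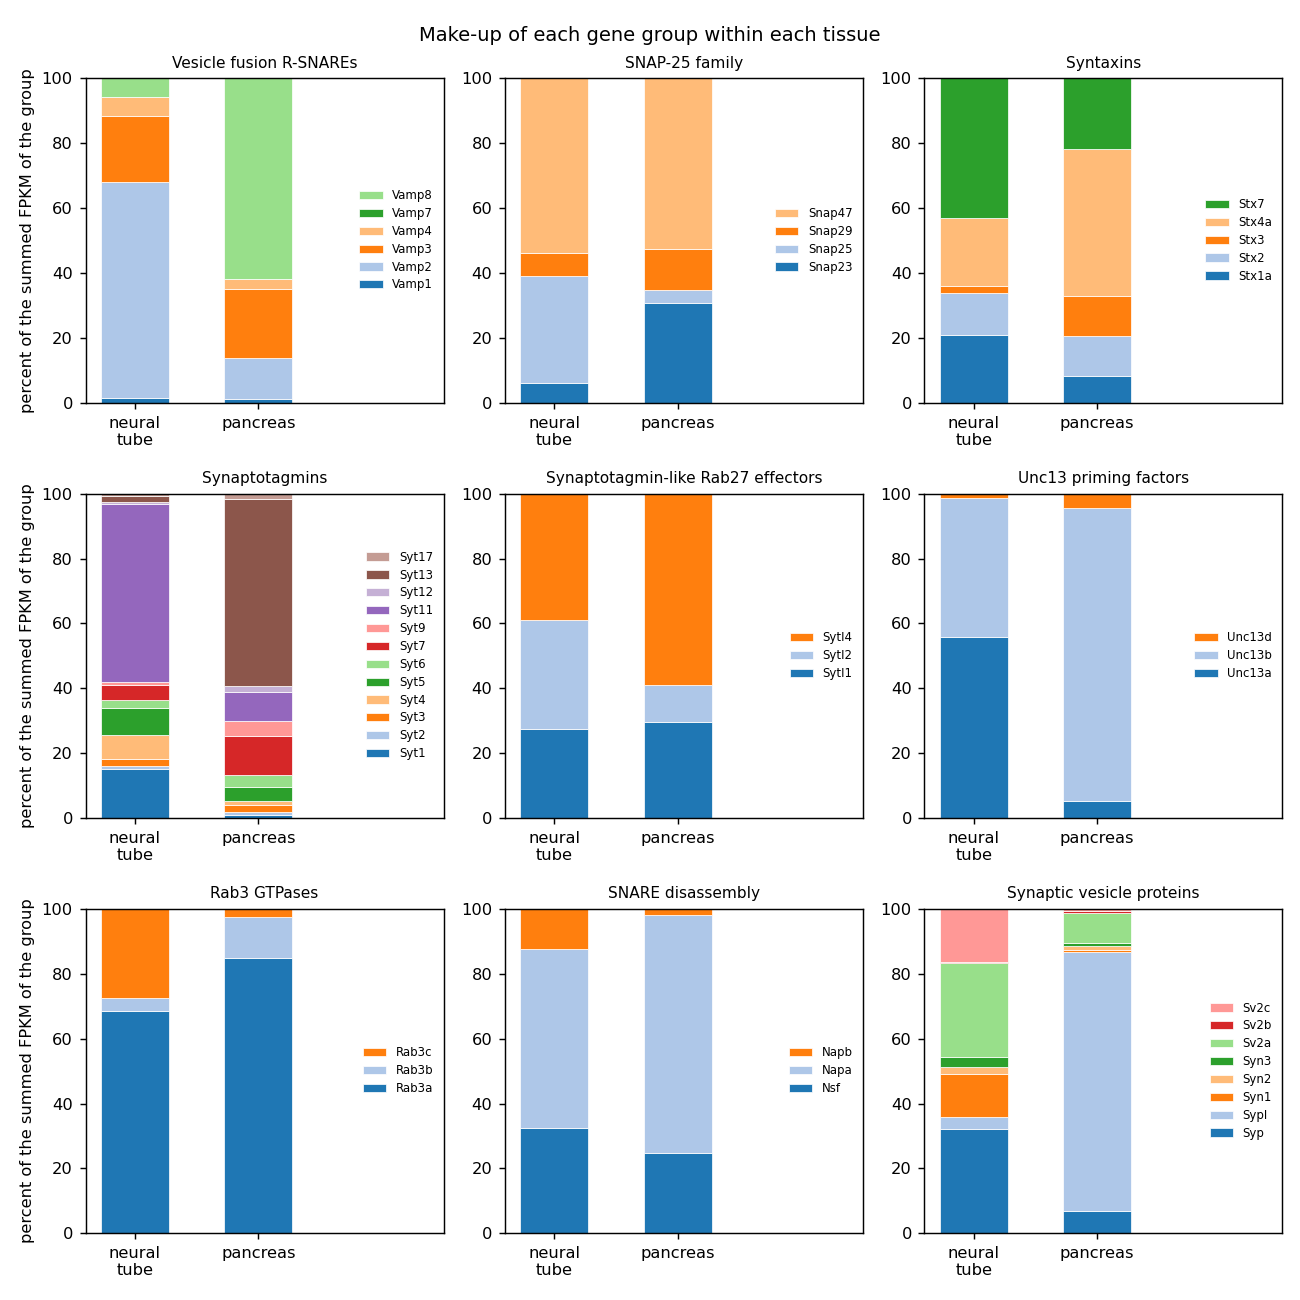
Share of each gene in the summed FPKM of its group (percent, stacked bars), in neural tube and pancreas, for the 9 groups of at least 3 genes. Vamp8 fills 61.8% of the R-SNARE bar in pancreas and Vamp2 66.6% in neural tube.

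Ratios of paralogs within 1 tissue do not depend on how the samples are scaled to each other. The 8 pairs listed for this purpose set a neuronal form against another paralog. The partners are not all forms from outside neurons, as Syt7 is also used in neurons and Rab3b had the higher value in neural tube. Of the 8 pairs 5 changed order, a count that describes these chosen pairs only. The Vamp2 to Vamp8 ratio was 11.4 in neural tube and 0.205 in pancreas, and the Snap25 to Snap23 ratio 5.23 and 0.127. For Syp to Sypl the ratio was 8.80 and 0.0855, the widest change of the 8 pairs at 103 times. The Syt1 to Syt7 ratio was 3.30 and 0.0920, and the Stx1a to Stx3 ratio 9.80 and 0.680. The remaining 3 pairs kept their order. Napa exceeded Napb in both tissues, with Napb to Napa ratios of 0.226 and 0.0255, and Rab3a exceeded Rab3b with ratios of 18.2 and 6.71. Unc13a exceeded Unc13d by 44.8 times in neural tube and 1.17 times in pancreas, where both were low at 0.480 and 0.412 FPKM. Whether a pair keeps its order depends on the partner chosen. Against Unc13b, Unc13a was higher in neural tube (14.8 and 11.3 FPKM) and lower in pancreas (0.480 and 8.20). Against Rab3d, Rab3a was higher in neural tube (54.9 and 2.19) and lower in pancreas (7.09 and 48.1).

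**Figure D4:**
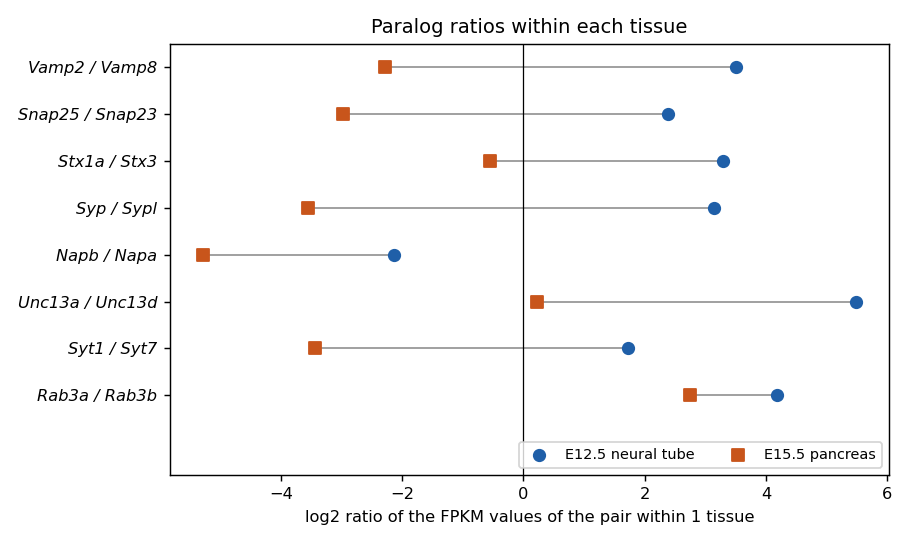
The log2 ratio of the FPKM values of 8 paralog pairs within neural tube (circles) and within pancreas (squares). The pairs Vamp2/Vamp8, Snap25/Snap23, Stx1a/Stx3, Syp/Sypl and Syt1/Syt7 lie right of 0 in neural tube and left of 0 in pancreas.

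Of 87 other genes of the pathway, listed apart from the 53, 86 were in the table. In each direction 9 were called (10.5% each, beside 4.76% and 5.5% of all genes), with 24 similar and a median difference of 0.09. Among all genes at 5 FPKM or more in either tissue the shares were 10.3% and 11.9%. A share of the 86 at that level was not computed. The 9 pathway genes called toward neural tube included active zone genes. Cadps, a primer of dense-core vesicles, was at 16.3 FPKM against 2.36 in pancreas. The vesicle transporter-like gene Svop was at 22.8 against 0.574 FPKM and Syngr3, a synaptogyrin, at 5.89 against 0.211. The active zone genes in this set were Bsn at 8.95 against 0.335, Erc2 at 5.84 against 0.528, Ppfia3 at 12.2 against 0.476 and Ppfia2 at 5.03 against 0.0911.

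Those toward pancreas included Rab GTPases of secretory granules. Rab3d, the Rab3 form of exocrine granules, was at 48.1 FPKM in pancreas against 2.19, above the 8.36 of Rab3a, Rab3b and Rab3c together. Rab26 was at 15.51 against 0.0905, and Rab27a, the partner of the synaptotagmin-like proteins, at 9.73 against 0.465. The Rab effector Rph3al (Noc2) was at 14.7 against 0.662 FPKM. Stxbp3a (Munc18-3), a partner of syntaxin 4, was at 14.5 against 1.87. Syngr2, a synaptogyrin of cells other than neurons, was at 68.6 against 8.00. The Golgi SNARE gene Bet1 was at 52.6 against 7.20 and the exocyst gene Exoc6 at 10.1 against 1.68.

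Markers of other cell types differed between the same samples. Because one sample was sorted and the other whole tissue, fewer cells of a type and less RNA per cell cannot be told apart. Toward pancreas, the summed FPKM of 12 acinar markers was 1.29 in neural tube and 38812 in pancreas, that of 14 endocrine markers 198 and 2923, and that of 8 duct and epithelial markers 28.5 and 1255. Mesenchyme (8 markers, 45.8 and 1261), endothelium (6 markers, 8.57 and 80.2), immune and mast cell (10 markers, 38.4 and 296) and erythroid and platelet lists (8 markers, 610 and 15888) also had higher sums in pancreas. Calls toward pancreas covered 10 of 14 endocrine, 6 of 8 duct, 6 of 8 mesenchyme, 4 of 6 endothelium, 6 of 10 immune and 5 of 8 erythroid markers. The highest pancreas levels were those of Ctrb1 (21063 FPKM), Hba-a1 (14315) and Clps (6693), then Hbb-b1 (1449), Ins2 (1369.9) and Gcg (712), and in the other lists Col3a1 (469), Spp1 (398), Lyz2 (106) and Pecam1 (24.3). In neural tube Sst, which neurons also express, made up 144.5 FPKM of the endocrine sum. Kit made up 31.6 FPKM of the immune and mast cell sum there, and Sox9 21.2 of the duct and epithelial sum. Both had lower values in pancreas, at 12.9 and 12.6 FPKM. Ins1, Ins2, Iapp, Ppy and the mast cell gene Mcpt4 were listed at 0 in neural tube. The part of each cell type in the higher values of Vamp8, Sypl, Syt13, Sytl4 and Stx3 was not tested.

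Toward neural tube, 10 pan-neuronal markers summed to 1644 FPKM against 48.5 in pancreas, where Gap43 at 14.2 and Stmn2 at 13.7 were highest, and Tubb3 at 869 and Ina at 208 led them in neural tube. The 8 inhibitory interneuron markers summed to 556 FPKM against 1.04, with Pax2 at 112 and Tfap2b at 92.4 highest, and Lbx1 was listed at 0 in pancreas. The 8 neural progenitor markers were also high, with a sum of 1012 against 312 FPKM, and 6 of 8 were called higher in neural tube. Vim, called similar, made up 477 FPKM of the sum in neural tube and 273 in pancreas. For 10 markers of peripheral neurons and crest glia the sums were 13.5 and 31.9 FPKM, with Ret at 13.0 and S100b at 6.25 in pancreas and none at 0. How much of the pancreas level of Rab3a, Sv2a, Stx1a, Cplx2 or Syp came from endocrine or nerve cells was not tested.

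Of the 19 called genes 6 were called under all 11 alternative settings: Rab3c, Syt11, Syt1, Snap25, Vamp8 and Sypl. None of the 19 changed direction under these settings. A pseudocount of 5 FPKM left the calls of 5 of the 14 neural tube genes, with Rab3a as the fifth, and 2 of the 5 pancreas genes. The calls of Stx3 and Syt13 were lost when the samples were rescaled to equal totals or to housekeeping genes, and that of Stx3 also when the totals were matched without the most abundant genes. The call of Napb was also lost with rescaling to the median ratio or the upper quartile. Stxbp2 gained a call with the upper quartile or a pseudocount of 0.1 FPKM. Rims2 gained one with that pseudocount and with 3 of the 5 rescalings. The sign of the difference changed under some setting for 9 genes without a call: Vamp4, Snap29, Stx2, Stxbp5, Syt12, Cplx2, Unc13d, Napa and Sv2b.

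**Figure D5:**
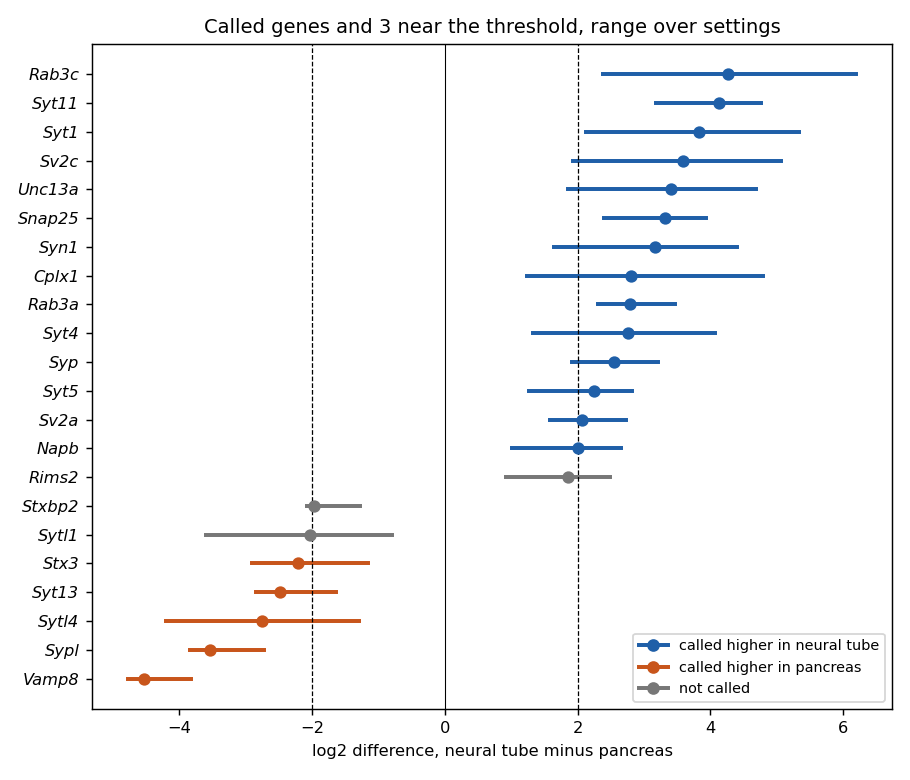
Difference in log2(FPKM + 1), neural tube minus pancreas, for the 19 called genes and for Rims2, Stxbp2 and Sytl1, which lie near the threshold or below the minimum level. Points are the reported values, bars the range over changes of pseudocount and scaling, and dashed lines the threshold of 2 in each direction; no bar of a called gene crosses 0.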

How the data were processed

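Only the RNA samples were used (1 sorted neural tube and 1 whole pancreas), and the other 16 of 18 samples, of chromatin, are not analysed here. The authors deposited FPKM values, 1 column per tissue. Cuffdiff 2.0.2, TopHat2 2.0.4, TopHat and CASAVA are listed with build mm9, per the submitters' processing notes, without their roles. Annotation and filters: not given in the sources used here. RNA of the sorted cells was column-purified and that of pancreas taken with Trizol, per the labels' protocols. The same protocols name an mRNA-seq preparation for both tissues and a TruSeq one for pancreas, so which was used for this pancreas RNA is unclear. Tissue, stage, sorting, extraction and possibly preparation thus cannot be told apart. FPKM also shrinks where a few abundant genes take many fragments.

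Differences, calls, sums and ratios were computed with pandas 2.3.3 in Python 3.11.15. The rule was also run on simulated data, with changes set above its threshold at levels above its minimum. That run checks the code only, and does not show how reliable the calls on these samples are. Coordinates come from GENCODE M1 on NCBIM37, where 52 of 53 symbols were found, and promoters from RefSeq (GRCm38.p6), matched by sequence to NCBIM37. Promoters for 14 genes, such as Snap25, Vamp2 and Syt4, were not among them. Depth was inferred from genes with 1 annotated transcript: FPKM times length less 180 bases fell most often on a step of 0.0386 in neural tube (235 of 2165 low genes) and 0.0197 in pancreas (224 of 2715), with 110 and 97 further genes near 2 times the step. Estimated fragments use the longest transcript and are approximate, and no interval per gene is given. Similar genes were first scored on the log2(FPKM + 1) scale, and the plain ratio written in the design was then restored. The 53 genes, the lists and the alternatives were chosen with earlier results of these data known. Every one of the 53 genes is named, with other pathway genes named where they were called, apart from some that are not reported here.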

Additional observations from a re-analysis of the deposited data

How the results depend on the processing

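The 11 alternatives changed the pseudocount, the minimum level, the scaling or the threshold, 1 at a time, except that the threshold of 2 times came with a narrower rule of 1.5 times for similar genes. The 14 genes called higher in neural tube became 5 with a pseudocount of 5 FPKM and 7 with a threshold of 8 times, and were 11 to 15 otherwise. The 5 called higher in pancreas became 2 with a pseudocount of 5 FPKM, 3 with a minimum of 10 FPKM, 3 with equal totals, 3 with housekeeping scaling, 9 with a threshold of 2 times and 2 with one of 8 times. The 9 similar genes became 17 with no minimum and 4 with a minimum of 10 FPKM. Scoring similarity on the log2(FPKM + 1) scale, an alternative chosen after seeing the data, added Vamp2 and gave 10. With equal totals 8 genes were similar and with housekeeping scaling 8, but not all were among the 9. The differences of Snap47, Stx1a, Stx7, Unc13b and Nsf rose to 1.40, 1.38, 1.15, 1.09 and 1.10 with housekeeping scaling. A difference above 1 is a plain ratio above 2, so these genes were no longer similar there. With equal totals Snap47, Stx1a and Stx7 also passed 1, at 1.30, 1.29 and 1.05. The median difference of 0.68 became 0.36 with a pseudocount of 5 FPKM, 0.43 with no minimum, 1.11 with equal totals, 1.15 with housekeeping scaling and 0.90 with totals matched without the most abundant genes. These 3 rescalings also moved the median over all genes at 1 FPKM in both tissues from 0.02 to 0.57, 0.67 and 0.32, so part of each shift is common to all genes. Over all genes the share of calls toward neural tube went from 46.4% to 66.8%, 69.8% and 58.2%, and over the exocytosis genes from 73.7% to 83.3%, 83.3% and 78.9%. Of the 15 housekeeping genes 3 were themselves called higher in pancreas. Under a threshold of 8 times or a pseudocount of 5 FPKM fewer genes can pass by construction. No paired analysis was possible because each tissue has 1 value per gene. Values below about 0.116 FPKM in neural tube and 0.0591 in pancreas on 1 kb stand for fewer than 3 fragments, and no listed value above 0 of the 53 genes was that low for its length.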
